A study of Homo sapiens with 12 samples.

Results

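The G protein-coupled receptor-associated sorting proteins GPRASP1 and GPRASP2 and the armadillo-repeat X-linked proteins ARMCX1 to ARMCX6 form a family of related genes on the long arm of chromosome X. The family was followed in SH-SY5Y, a human neuroblastoma cell line that is long established in culture, with and without a knockout of FMR1, the gene that is silenced in fragile X syndrome. Its 9 entries in the count table were taken by symbol from 59087 features: GPRASP1, GPRASP2, the read-through gene ARMCX5-GPRASP2, ARMCX1, ARMCX2, ARMCX3, ARMCX4, ARMCX5 and ARMCX6. All 9 were in the table and passed the filter on low counts, which left 16704 genes for testing. The family was chosen by measured values: it was picked because the CPM of GPRASP1 and GPRASP2 was higher in all knockout lines than in wild type. Levels of these genes and of their read-through in knockout against wild type are therefore descriptions without a test. The 6 ARMCX genes entered by family name and were tested.

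Poly(A) RNA was sequenced from 12 cultures kept for 2 weeks in SILAC medium, whose arginine and lysine carry either heavy or ordinary (light) stable isotopes. The 4 groups were wild-type cells in heavy medium, wild-type cells in light medium, FMR1-knockout cells in heavy medium and FMR1-knockout cells in light medium, with 3 libraries each. The knockout libraries come from 3 separately made lines, each sequenced once per medium, so that replicates 1, 2 and 3 of both knockout groups are lines 1, 2 and 3. The labels do not say how the knockout was made or whether a line is a single clone, and they give no origin for the numbered wild-type libraries, so the spread among wild-type libraries may be technical. What comes from the loss of FMR1 and what comes from deriving a line cannot be told apart in these groups.

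GPRASP proteins bind the tails of internalised G protein-coupled receptors and take part in sorting them to the lysosome. ARMCX1, ARMCX2, ARMCX3 and ARMCX6 are anchored in the outer mitochondrial membrane, and ARMCX1 and ARMCX3 are known from the movement of mitochondria along axons. These genes are found in placental mammals, lie near the BEX and TCEAL genes, and are expressed widely in neurons.

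The family lies in 2 clusters in GENCODE 29 on GRCh38. The first holds ARMCX4 (chrX:101418287-101533459, plus strand), ARMCX1 (chrX:101550531-101554700, plus), ARMCX6 (chrX:101615118-101618001, minus), ARMCX3 (chrX:101622797-101627843, plus) and ARMCX2 (chrX:101655281-101659891, minus). The second holds ARMCX5 (chrX:102599168-102604159), GPRASP1 (chrX:102651366-102659083) and GPRASP2 (chrX:102712176-102717733), all on the plus strand. ARMCX5-GPRASP2 (chrX:102599512-102714671, plus) joins exons of ARMCX5 to exons of GPRASP2, and GPRASP1 lies between them. Relative to the start of GPRASP2, GPRASP1 starts at -60.8 kb, ARMCX5 at -113.0 kb and ARMCX2, the nearest of the first cluster, at -1052.3 kb.

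Promoter sequences from RefSeq (GRCh38.p14, 250 bases before to 50 bases after each start) were matched for 8 of the 9 genes. The windows of GPRASP1 and GPRASP2 were 89.1% identical, whereas that of GPRASP1 was 46.5% identical to the window of ARMCX5, which lies in the same cluster. The pair shared an unbroken stretch of 48 bases that starts 117 bases before each RefSeq start. Among 35116 windows of 27305 genes this stretch was found at 3 positions, those of GPRASP1, of GPRASP2 (a start also listed for the read-through gene) and of GPRASP3. GPRASP3, which the count table lists as BHLHB9, is a further sorting-protein gene and starts 8.5 kb beyond the start of GPRASP2 in GENCODE 29. RefSeq lists 2 windows for it, and the stretch lies in the one farther from GPRASP2, not in the one near the GENCODE start. The beginning of the stretch is shown for the 3 genes because it sets them apart from the ARMCX windows, with the bases of the stretch in capitals. The bases shown, which begin just before the stretch, lie at chrX:102651358-102651387, chrX:102712323-102712352 and chrX:102745935-102745964, all on the plus strand. Of these 30 bases, 22 lie in GENCODE 29 exons for GPRASP1, 30 for GPRASP2 and 0 for GPRASP3. By that annotation the stretch is thus not upstream sequence in GPRASP1 and GPRASP2.
GPRASP1: ggcgtcctGCACTTTCGCGCCGTATCCCTC
GPRASP2: ggcgtcaaGCACTTTCGCGCCGTATCCCTC
GPRASP3: ggcgtcgaGCACTTTCGCGCCGTATCCCTC

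Likeness between GPRASP1 and GPRASP2 went on further upstream. Of the 133 bases of the GPRASP1 window that lie before its annotated exons (chrX:102651233-102651365, plus strand), 117 were identical in the GPRASP2 window and are shown in capitals.
GPRASP1 upstream: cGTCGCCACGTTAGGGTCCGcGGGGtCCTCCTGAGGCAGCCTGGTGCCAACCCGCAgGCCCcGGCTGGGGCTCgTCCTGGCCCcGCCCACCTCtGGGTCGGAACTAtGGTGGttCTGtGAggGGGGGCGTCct

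ARMCX1, ARMCX2, ARMCX4 and ARMCX6 of the first cluster had another sequence in common; ARMCX3 was not examined. The hexamer CACGTG, an E-box that reads the same on both strands, was found in a window of ARMCX1, ARMCX2, ARMCX4 and ARMCX6. It was in 7.26% of all windows and in 9.71% of the 1236 windows on chromosome X. It was in 1 of 2 windows of ARMCX4 and of GPRASP3 and in 1 of 4 windows of the read-through gene, and not in the window of ARMCX5, of GPRASP1 or of GPRASP2. The 30 bases around it are shown with the hexamer in capitals, to show that the flanking bases are alike. They lie at chrX:101550506-101550535 (plus strand), chrX:101659893-101659922 (minus), chrX:101485397-101485426 (plus) and chrX:101617984-101618013 (minus).
ARMCX1: tgacgtggccctCACGTGagctggagccga
ARMCX2: cgatgcagccctCACGTGaccaggagctga
ARMCX4: acgcgcggtcctCACGTGacccggagctgc
ARMCX6: tgacgtggccgtCACGTGaccaagagccgc

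ARMCX1 and ARMCX2 also shared a stretch of 25 bases that was in no other of the 35116 windows. By identity over the whole window ARMCX1 was nearer to ARMCX6 (60.8%) than to ARMCX2 (55.8%), and ARMCX2 and ARMCX6 shared 19 unbroken bases. Their sequences before the annotated exons are shown with this stretch and the hexamer in capitals, for ARMCX1 at chrX:101550297-101550530 (plus strand) and for ARMCX2 at chrX:101659892-101660100 (minus).
ARMCX1 upstream: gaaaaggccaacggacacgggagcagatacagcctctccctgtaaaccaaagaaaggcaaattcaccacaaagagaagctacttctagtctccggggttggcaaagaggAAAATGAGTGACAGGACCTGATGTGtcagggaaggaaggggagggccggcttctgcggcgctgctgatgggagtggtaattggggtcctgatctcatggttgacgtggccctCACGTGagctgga
ARMCX2 upstream: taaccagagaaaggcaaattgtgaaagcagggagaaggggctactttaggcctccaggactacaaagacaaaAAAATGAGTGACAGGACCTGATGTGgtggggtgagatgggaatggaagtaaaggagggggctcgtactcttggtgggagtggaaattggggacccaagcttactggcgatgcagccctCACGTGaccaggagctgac
Stretches and hexamer were chosen after the sequences had been read, so their presence is a description of these windows and says nothing on binding.

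The libraries held 25935152 to 40257027 counts, and their TMM factors lay between 0.981 and 1.024. FMR1 mRNA stood at 35.9 to 42.0 CPM (the count scaled to the library's total after TMM correction) in wild type and at 7.19 to 22.4 CPM in knockout, so that the groups did not overlap. The highest knockout value was that of line 1 in heavy medium, at 0.583 of the wild-type mean in heavy medium. The 2 libraries of line 1 also differed from each other in their whole profile: their deviations from the group means correlated at 0.11, against 0.76 for lines 2 and 3, which does not say which of the 2 is apart. Line 1 against wild type had 4688 calls over all genes, 4325 without its heavy and 1494 without its light library. All 10 noradrenergic marker genes of the cell type passed the filter, among them HAND2 at 764 CPM and GATA3 at 426 CPM in wild type, but TH was at 0.616 CPM. They summed to 8670 to 9660 CPM in wild-type and 6770 to 8920 CPM in knockout libraries. DBH (2250 to 1380 CPM, edgeR adjusted p = 0.0275) and GATA3 (426 to 335 CPM, adjusted p = 0.0248) fell and CHGB (207 to 288 CPM, adjusted p = 0.0359) rose. Line 3 was near wild type for CHGB (210 CPM) and GATA3 (408 CPM), and at 1840 CPM for DBH. Blood markers summed to at most 0.0557 CPM in any library, with PTPRC and CD3E at 0. Epithelial markers summed to 2.1 to 3.1 CPM in wild-type and 2.71 to 5.6 CPM in knockout libraries, with KRT5 at 0. Among them KRT19 rose from 1.04 to 2.7 CPM (log2 fold change 1.35, edgeR adjusted p = 0.00271). Fibroblast markers, nearly all of it PDGFRA (90.5 CPM in wild type, 33.5 CPM in knockout) with DCN at 0, summed to 92.0 to 104 CPM in wild-type and 13.4 to 60.4 CPM in knockout libraries. The part of these differences in the results was not tested, and in bulk RNA fewer cells of a type and less RNA per cell cannot be told apart.

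GPRASP1 and GPRASP2, the sorting proteins, were among the most increased mRNAs of the knockout cells. GPRASP1 (ENSG00000198932.12) was at 1.25, 1.03 and 1.20 CPM in wild-type cells in heavy medium and at 1.12, 1.16 and 1.42 CPM in light medium. In knockout lines 1, 2 and 3 it was at 12.7, 30.1 and 13.7 CPM in heavy medium and at 23.2, 25.3 and 13.9 CPM in light medium. Every knockout value was thus above every wild-type value, and line 2 was the highest in both media. The mean went from 1.20 ± 0.131 CPM (SD, n = 6) to 19.8 ± 7.38 CPM (SD, n = 6), 16.6-fold, or 17.7-fold without line 1 in heavy medium. In counts, wild-type libraries held 32 to 47 reads of GPRASP1 and knockout libraries 408 to 1068.

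GPRASP2 (ENSG00000158301.18), known from the sorting of several receptors and of the Hedgehog transducer SMO, had the higher CPM of the pair in every library, also per kb of exon. In wild type it was at 2.77, 2.77 and 2.81 CPM in heavy medium and at 2.60, 3.07 and 3.29 CPM in light medium. Lines 1, 2 and 3 held 24.5, 47.5 and 40.3 CPM in heavy medium and 45.1, 53.3 and 37.8 CPM in light medium. The groups did not overlap, and the lowest knockout value, that of line 1 in heavy medium, was 8.78 times the wild-type mean in that medium. Wild-type libraries averaged 2.89 ± 0.250 CPM and knockout libraries 41.4 ± 9.93 CPM (SD, n = 6 each), 14.3-fold higher, or 15.5-fold higher without that library.

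ARMCX5-GPRASP2 (ENSG00000271147.7), listed in the annotation as a processed transcript, was the least counted of the 9 genes in wild type, with 18 to 23 reads a library. It was at 0.744, 0.742 and 0.501 CPM in wild type in heavy medium and at 0.591, 0.494 and 0.692 CPM in light medium. In lines 1, 2 and 3 it was at 3.43, 6.71 and 4.89 CPM in heavy medium and at 7.05, 7.37 and 6.61 CPM in light medium. All 6 knockout values were above all wild-type values, and the mean was 9.58-fold higher, or 10.4-fold without line 1 in heavy medium. Its 2711 exonic bases include 281 that are also annotated to GPRASP2 and 669 that are also annotated to ARMCX5. No source used here says how reads over shared exons were assigned, so its level is uncertain.

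The 3 differences were large beside those of other genes. By log2 fold change of the fit, GPRASP1 (4.05) held place 36 of 16704 from the top, GPRASP2 (3.84) place 43 and ARMCX5-GPRASP2 (3.25) place 64. The fit called 24.8% of all genes at an adjusted p under 0.05, 15% of them higher and 9.78% lower, as shares of all tested genes.

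**Figure D1:**
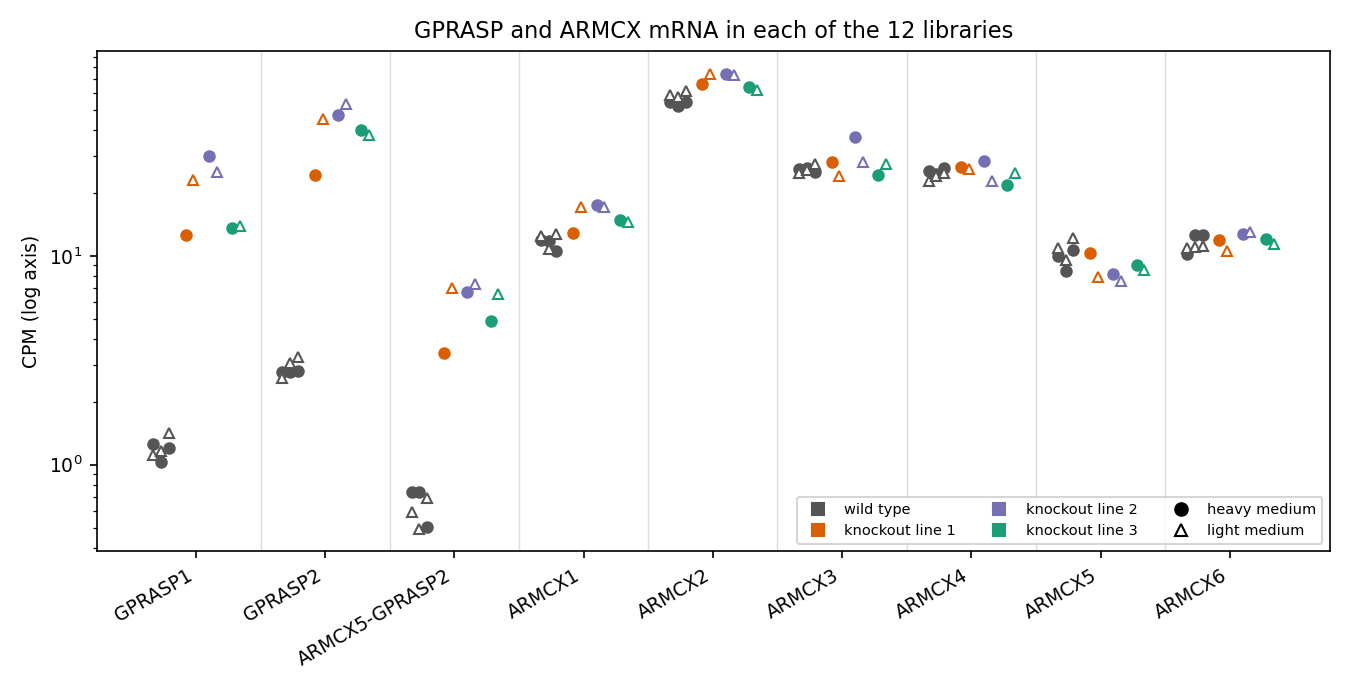
CPM (log axis) of the 9 genes in each of the 12 libraries, coloured by wild type or knockout line, with filled circles for heavy and open triangles for light medium. GPRASP1, GPRASP2 and ARMCX5-GPRASP2 lie far above wild type in all 6 knockout libraries, with line 1 in heavy medium the lowest of the 6, while ARMCX1 and ARMCX2 lie just above their wild-type values.

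The sorting-protein pair was counted in similar proportions in both genotypes. There were 2.42 ± 0.192 GPRASP2 reads for each GPRASP1 read in wild type (SD, n = 6; range 2.22 to 2.69) and 2.21 ± 0.526 in knockout (SD, n = 6; range 1.57 to 2.95). Line 3 had the highest ratios of the knockout libraries, 2.95 in heavy and 2.73 in light medium, and line 2 in heavy medium the lowest. Read-through reads per 100 GPRASP2 reads went from 21.9 ± 4.45 (range 16.1 to 26.8) in wild type to 14.5 ± 1.84 (range 12.1 to 17.5) in knockout, so that the ranges met. GPRASP2 reads per ARMCX5 read went from 0.283 ± 0.0352 to 4.96 ± 1.61. GPRASP1 and GPRASP2 together made up 2.55% to 3.02% of the CPM of the 9 genes in wild type and 18.8% to 31.6% in knockout. These ratios use the differences for which the pair was picked and carry no test.

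GPRASP3, which holds the shared stretch in 1 of its 2 RefSeq windows, was nearly silent. As BHLHB9 it had 0, 1 and 1 reads in the heavy and 2, 3 and 7 reads in the light wild-type libraries. Lines 1, 2 and 3 had 6, 10 and 4 reads in the heavy and 18, 9 and 3 reads in the light libraries. The groups overlapped, and the gene was below the filter and was not tested. In the window that holds it the stretch starts 36 bases before the RefSeq start, not 117.

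Among the ARMCX genes, 2 of 6 rose in the knockout, ARMCX1 and ARMCX2, and 0 fell, beside 24.8% of all genes called in either direction. The median log2 fold change of the 6 was 0.092, and that of all tested genes 0.0029. ARMCX1 (ENSG00000126947.12), known from mitochondrial transport and axon regrowth, was at 11.9, 11.8 and 10.6 CPM in wild type in heavy medium and at 12.5, 10.9 and 12.7 CPM in light medium. Lines 1, 2 and 3 held 12.9, 17.6 and 14.9 CPM in heavy medium and 17.2, 17.1 and 14.6 CPM in light medium. The groups did not overlap, though line 1 in heavy medium was just above the highest wild-type library. The log2 fold change was 0.42 (SE 0.083, edgeR adjusted p = 0.00445), a 1.34-fold rise, and 0.47 without line 1 in heavy medium (adjusted p = 0.00274).

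ARMCX2 (ENSG00000184867.13), a mitochondrial relative and the most expressed gene of the family, was at 54.4, 52.4 and 54.3 CPM in wild type in heavy medium and at 59.3, 57.5 and 61.8 CPM in light medium. Lines 1, 2 and 3 held 66.9, 74.8 and 64.3 CPM in heavy medium and 74.6, 73.6 and 62.1 CPM in light medium. Again all 6 knockout values were above all wild-type values, with line 3 nearest to wild type. The log2 fold change was 0.30 (SE 0.056, edgeR adjusted p = 0.00373), a 1.23-fold rise, and 0.29 without line 1 in heavy medium (adjusted p = 0.00716). On counts summed per line, 3 against 3, neither call remained: edgeR's adjusted p was 0.0600 for ARMCX1 and 0.0719 for ARMCX2, and 0 of 6 ARMCX genes were called (3 at an unadjusted p under 0.05). That fit called 1.58% of all genes. The fit on all 12 libraries takes the 2 libraries of a line as separate samples. Its adjusted p values thus do not allow for likeness within a line.

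The other ARMCX genes did not pass the test. ARMCX3 (ENSG00000102401.19), which links mitochondria to the Miro and TRAK transport proteins, was at 26.0, 26.3 and 25.1 CPM in wild type in heavy medium and at 25.1, 25.7 and 27.5 CPM in light medium. Lines 1, 2 and 3 held 28.3, 37.3 and 24.4 CPM in heavy medium and 24.1, 28.3 and 27.5 CPM in light medium. Line 2 in heavy medium was far above the others, 4 knockout libraries were above and 2 below all wild-type libraries, and the log2 fold change was 0.12 (SE 0.089, edgeR adjusted p = 0.316). An antisense gene, ARMCX3-AS1, shares 460 exonic bases with ARMCX3.

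ARMCX4 (ENSG00000196440.11) ranged from 22.7 to 26.5 CPM in wild type and from 21.8 to 28.4 CPM in knockout. Its log2 fold change was 0.02 (SE 0.065, edgeR adjusted p = 0.836). ARMCX6 (ENSG00000198960.10) ranged from 10.2 to 12.7 CPM in wild type and from 10.5 to 13.0 CPM in knockout, with 0.06 as log2 fold change (SE 0.073, edgeR adjusted p = 0.570). In both genes the knockout range covered most of the wild-type range.

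ARMCX5 (ENSG00000125962.14), the armadillo gene upstream of GPRASP1, had a lower mean in the knockout, 8.62 ± 0.999 CPM against 10.3 ± 1.29 CPM in wild type (SD, n = 6 each). It was at 10.0, 8.48 and 10.7 CPM in wild type in heavy medium and at 10.9, 9.52 and 12.3 CPM in light medium. Lines 1, 2 and 3 held 10.4, 8.18 and 9.07 CPM in heavy medium and 7.92, 7.57 and 8.61 CPM in light medium. The groups overlapped, with 3 of 6 knockout libraries below all wild-type libraries, and the difference missed the threshold (log2 fold change -0.26, SE 0.10, edgeR adjusted p = 0.0735). It passed in some other settings, among them with an edgeR adjusted p of 0.0334 without line 1 in heavy medium, 0.0363 without wild-type heavy replicate 2, and a DESeq2 adjusted p of 0.0488.

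Of the 6 ARMCX genes, ARMCX1 and ARMCX2 alone had all 6 knockout libraries above all 6 wild-type libraries. Over all tested genes that share was 6.54%, and the share with all knockout libraries below was 4%. GPRASP1, GPRASP2 and ARMCX5-GPRASP2 also had all knockout libraries above. These 3 genes were chosen for this rise, so they are not set against that share.

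Levels between genes were compared as CPM per kb of annotated exon. In wild type ARMCX2 led at 15.8 ± 0.987, followed by ARMCX3 at 6.12 ± 0.210, ARMCX1 at 5.48 ± 0.405, ARMCX6 at 4.59 ± 0.400, ARMCX5 at 2.10 ± 0.264, ARMCX4 at 1.86 ± 0.0962, GPRASP2 at 0.726 ± 0.0630, ARMCX5-GPRASP2 at 0.231 ± 0.0423 and GPRASP1 at 0.189 ± 0.0207 (SD, n = 6 each). Neighbours whose ranges overlapped over libraries were ARMCX3 and ARMCX1, ARMCX1 and ARMCX6, ARMCX5 and ARMCX4, and ARMCX5-GPRASP2 and GPRASP1. GPRASP2 and GPRASP1 thus stood at the bottom of the order in wild type. In knockout GPRASP2 was second at 10.4 ± 2.50, behind ARMCX2 at 19.3 ± 1.58, and GPRASP1 was sixth at 3.12 ± 1.16. Of its neighbours there, GPRASP2 overlapped ARMCX1 (7.33 ± 0.883) and not ARMCX2, and GPRASP1 overlapped both ARMCX6 (4.79 ± 0.359) and ARMCX5-GPRASP2 (2.22 ± 0.564). Lengths count every annotated exon, which lowers the value of ARMCX4, whose 13351 exonic bases span several transcripts.

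**Figure D2:**
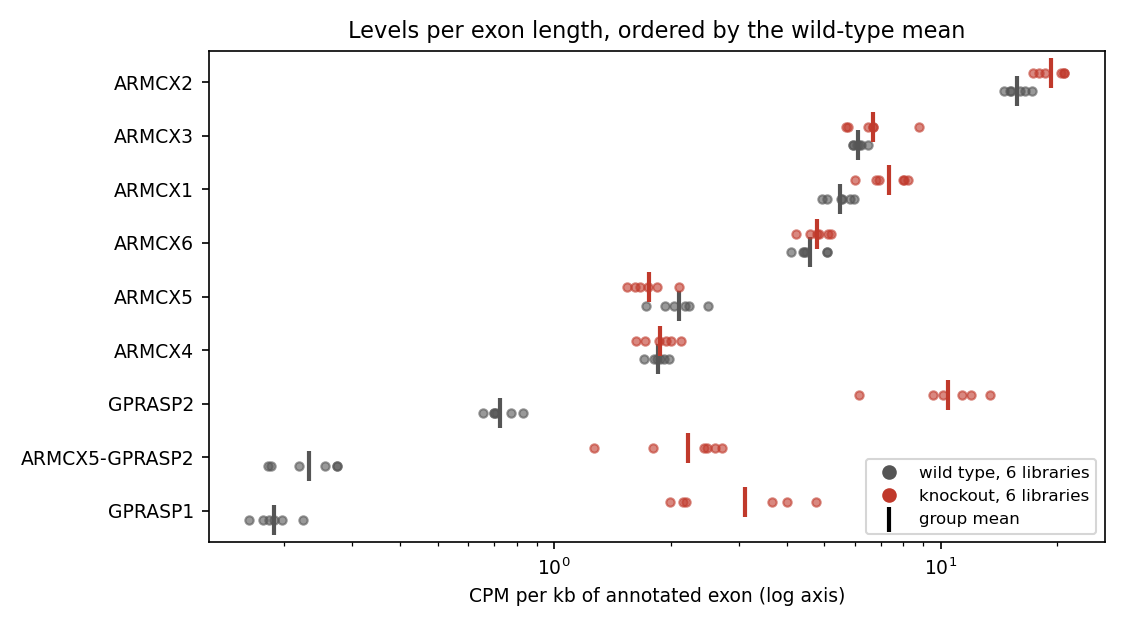
CPM per kb of annotated exon (log axis) of the 9 genes, ordered by the wild-type mean, with a point for each of 6 wild-type (grey) and 6 knockout (red) libraries and a bar for each group mean. GPRASP2 and GPRASP1 move from 0.726 and 0.189 in wild type to 10.4 and 3.12 in knockout, into the range of the ARMCX genes.

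Each knockout line was also set against the 6 wild-type libraries. In these comparisons the wild-type libraries are shared, so the lines' values are given side by side. GPRASP1 was 15.0-fold, 23.2-fold and 11.5-fold higher in lines 1, 2 and 3, GPRASP2 12.1-fold, 17.5-fold and 13.5-fold, and ARMCX5-GPRASP2 8.35-fold, 11.2-fold and 9.16-fold. By the fit, the log2 fold changes of GPRASP1, GPRASP2 and ARMCX5-GPRASP2 in line 1 were 4.23, 3.91 and 3.58 without its heavy library and 3.44, 3.13 and 2.38 without its light library. In line 1, ARMCX1 (log2 fold change 0.34, edgeR adjusted p = 0.0186) and ARMCX2 (0.31, adjusted p = 0.000716) rose, 2 of 6 ARMCX genes beside 28.1% of all genes (14.6% higher and 13.5% lower). Without line 1 in light medium, ARMCX1 was no longer called (log2 fold change 0.17, edgeR adjusted p = 0.50).

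Line 2 had the most calls. ARMCX1 (log2 fold change 0.56, edgeR adjusted p = 2.37e-05), ARMCX2 (0.39, adjusted p = 1.86e-05) and ARMCX3 (0.33, adjusted p = 0.00235) rose and ARMCX5 fell (-0.39, adjusted p = 0.0115), 4 of 6 ARMCX genes beside 45.1% of all genes (23.1% higher and 22% lower). The ARMCX3 call was lost without line 2 in heavy medium (edgeR adjusted p = 0.425) and the ARMCX5 call without line 2 in light medium (0.229). In line 3, 1 of 6 was called, ARMCX1 (log2 fold change 0.32, edgeR adjusted p = 0.0347), beside 7.52% of all genes (3.99% higher and 3.53% lower). This call was lost without wild-type heavy replicate 2 (0.0633), wild-type light replicate 2 (0.0819), line 3 in heavy medium (0.368) or line 3 in light medium (0.143).

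A test among the 3 knockout lines, on their 6 libraries, called 0 of 9 genes by edgeR (1 at an unadjusted p under 0.05), beside 12.4% of all genes. The family was picked on values of GPRASP1 and GPRASP2 in these same libraries, so that their differences among lines, and those of the read-through gene, are not independent of that choice. The smallest p was that of GPRASP1 (0.0395, edgeR adjusted p = 0.164), for which line 2 was 0.67 above line 1 and line 3 was -1.02 from line 2 on the log2 scale. For GPRASP2 the adjusted p was 0.407. DESeq2 called GPRASP1, beside 11% of all genes, and edgeR without a filter on low counts called GPRASP1 and GPRASP2. Given how the family was picked, these calls are no support for a difference among lines. The calls changed again without line 1 in heavy or in light medium. Line 1 then has 1 library, so those calls are not given. The remaining library of line 1 is then assumed to vary like the other lines. The call for GPRASP1 and GPRASP2 thus changed with the tool, with the filter and with the libraries of line 1 that entered, and the cause was not tested.

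No difference between the media was detected in the family. Heavy against light medium, fitted on all 12 libraries, called 0 of 9 genes, and 0 of 16704 in all (0%) by edgeR and by DESeq2. At an unadjusted p under 0.05 there were 531 genes and 0 of the 9. The largest of the 9 differences on the log2 scale was -0.26 (SE 0.19) for ARMCX5-GPRASP2, and those of GPRASP1 and GPRASP2 were -0.12 (SE 0.24) and -0.21 (SE 0.15), all with an edgeR adjusted p of 0.999. The interaction of genotype and medium called 0 of 9 and 0 of 16704 genes (0%) by edgeR and by DESeq2, with 149 genes and 0 of the 9 at an unadjusted p under 0.05. The standard errors of the interaction were 0.53 for GPRASP1 and 0.32 for GPRASP2 on the log2 scale, which limits the dependence on medium that could be detected. The fits for medium and interaction did not pair the 2 libraries of a line, so their standard errors hold the spread among lines. With the replicate block, which pairs them, 0 of 9 were called in either comparison.

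The genes around the family moved in both directions. Of 35 tested genes that start within 1 Mb of the span from ARMCX4 to GPRASP2, 8 rose (22.9%) and 6 fell (17.1%), beside 19% and 11.8% of the 525 tested genes of chromosome X. Their median log2 fold change was 0.0089. Nearest to the pair among tested genes outside the read-through were ARMCX5 on one side and LINC00630, a long noncoding RNA 57.0 kb beyond the start of GPRASP2, on the other. LINC00630 went from 3.40 ± 0.348 to 4.19 ± 0.522 CPM (log2 fold change 0.31, SE 0.11, edgeR adjusted p = 0.0485). TMSB15A, a thymosin gene that starts at -195.4 kb, fell (log2 fold change -0.44, edgeR adjusted p = 0.0429). So did ZMAT1 (-0.59, 0.0110), GLA (-0.28, 0.0141), RPL36A (-0.43, 0.0436), TSPAN6 (-0.43, 0.0206) and the pseudogene NANOGNBP3 (-1.04, 0.0257). In lines 1, 2 and 3 TMSB15A was at -0.635, -0.718 and -0.0757 and TSPAN6 at -0.494, -0.791 and -0.117, so line 3 moved little. ZMAT1, GLA, RPL36A and NANOGNBP3 were lower in every line. SYTL4, a granule-docking gene, had the largest rise of the 35 (log2 fold change 2.06, adjusted p = 0.0210), with 2.39, 2.64 and -0.16 in lines 1, 2 and 3. The other 6 that rose were BEX and TCEAL genes. On counts summed per line 0 of the 35 were called (14 at an unadjusted p under 0.05), and without line 1 in heavy medium 6 rose and 5 fell. With both libraries of line 1 left out 4 rose and 3 fell, with line 2 left out 4 and 1, and with line 3 left out 10 and 9. With 1 library left out, 4 to 10 rose and 3 to 6 fell. There were 4 that rose without line 2 in heavy or in light medium and 5 without line 1 in light medium or wild-type light replicate 1 or 2. There were 3 that fell without line 2 in either medium, line 1 in light medium, wild-type heavy replicate 1 or wild-type light replicate 2 or 3.

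**Figure D3:**
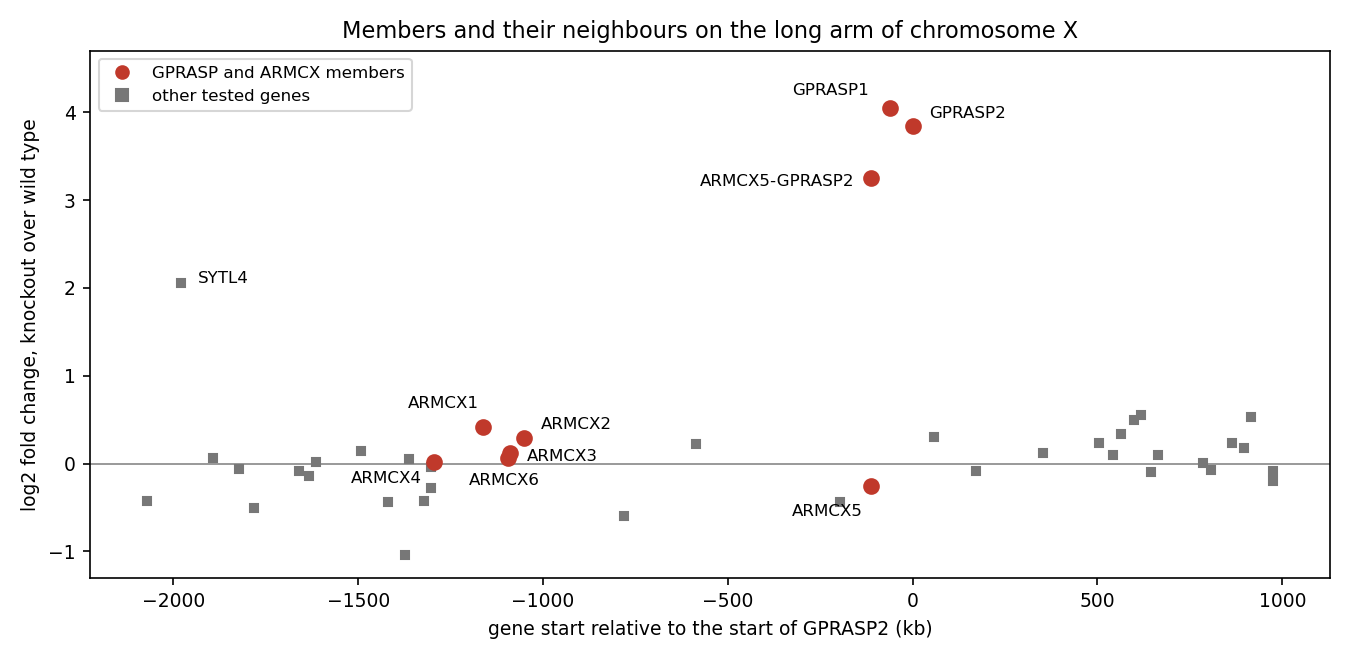
Log2 fold change of knockout over wild type against the position of each gene's start relative to that of GPRASP2 (kb), for the 9 family members (red circles) and 35 other tested genes (grey squares). GPRASP1, GPRASP2 and ARMCX5-GPRASP2 stand at 3.25 to 4.05 while ARMCX5, which starts within 1 kb of the read-through gene, is at -0.26.

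Some of the BEX and TCEAL genes, which encode small neuronal adaptor and elongation-factor-like proteins near the family, rose and the others did not pass the test. Of 16 listed relatives, which include BHLHB9 and the autosomal relative ARMC10, 13 were tested, 6 rose and 0 fell, with a median log2 fold change of 0.22, beside 15% and 9.78% of all genes and a median of 0.0029. TCEAL1 went from 9.35 ± 0.620 to 13.5 ± 2.43 CPM (log2 fold change 0.53, edgeR adjusted p = 0.00578). BEX2, a regulator of apoptosis and cell cycle, went from 41.1 ± 1.37 to 58.0 ± 10.7 CPM (0.49, adjusted p = 0.00711). TCEAL5 (0.34, edgeR adjusted p = 0.0074) and TCEAL7 (0.55, adjusted p = 0.0111) also rose, as did BEX4 (0.23, adjusted p = 0.0328) and TCEAL4 (0.23, adjusted p = 0.0228). In each of these 6 genes line 3 had the smallest log2 fold change. It hardly moved for BEX4 (0.0137) and TCEAL4 (0.036), which were at 0.28 and 0.253 in line 1 and at 0.352 and 0.362 in line 2. TCEAL2, which starts at -586.5 kb from GPRASP2, between the clusters, was at 5.42 CPM in wild type, 3.37 and 3.00 CPM in lines 1 and 2 and 12.6 CPM in line 3, and did not pass. Of the 13 BEX and TCEAL genes with a RefSeq promoter window, 11 held CACGTG in any window and 0 the stretch of GPRASP1 and GPRASP2. Among single windows of chromosome X the share with CACGTG was 9.71%. These 13 genes are not the same as the 13 tested, and a link of the hexamer to the rise was not tested. The count of 6 became 5 without line 1 in heavy medium, 4 without line 1 or without line 2, 8 without line 3 (1 then fell), 4 to 8 with 1 library left out, and 0 on counts summed per line (6 at an unadjusted p under 0.05).

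**Figure D4:**
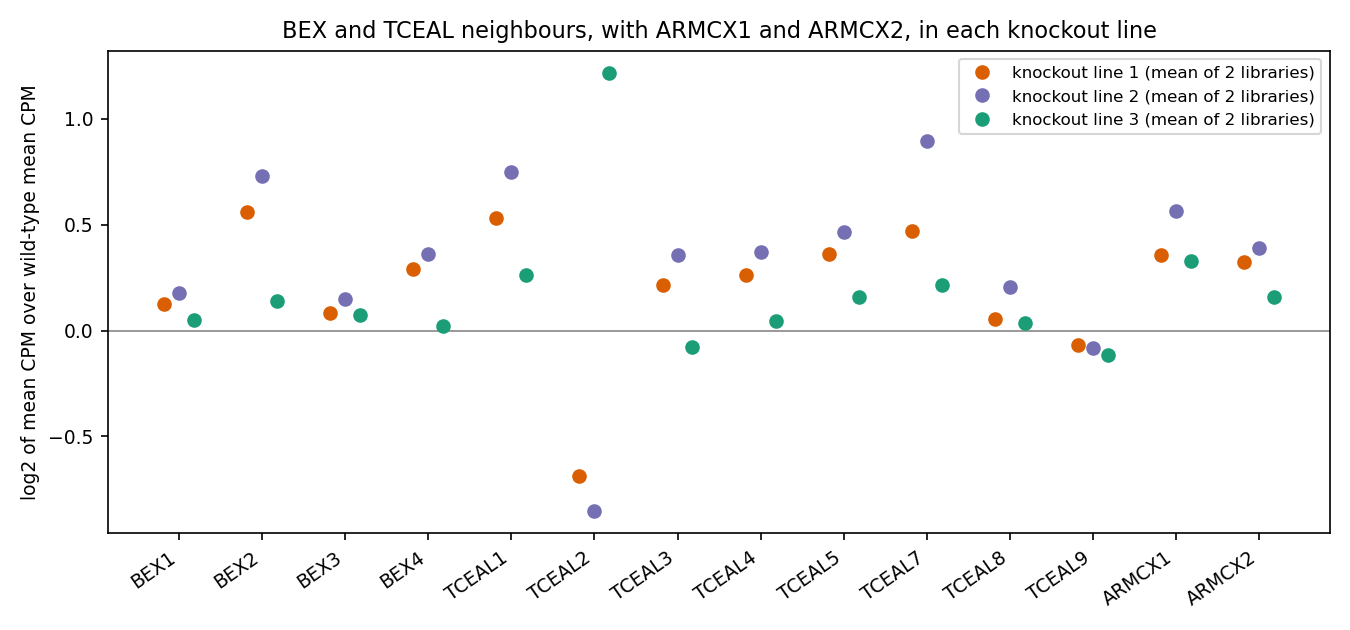
Log2 ratio of the mean CPM of each knockout line (2 libraries) to the wild-type mean (6 libraries) for 12 tested BEX and TCEAL genes and for ARMCX1 and ARMCX2. Line 2 is highest and line 3 lowest for BEX2, TCEAL1, TCEAL7, ARMCX1 and ARMCX2, and TCEAL2 is below wild type in lines 1 and 2 and above it in line 3.

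Genes of the machinery with which the GPRASP proteins work were followed as a list. Of 25 genes of receptor endocytosis and endosomal sorting, 24 were tested, 3 rose and 1 fell, with a median log2 fold change of 0.033, beside 15% and 9.78% of all genes and a median of 0.0029. TSG101, a subunit of the ESCRT machinery, went from 83.5 ± 1.08 to 94.8 ± 2.98 CPM (log2 fold change 0.18, edgeR adjusted p = 0.0036). NSF, a membrane-fusion ATPase (0.29, adjusted p = 0.0103), and ARRB2, a beta-arrestin (0.14, adjusted p = 0.0336), also rose, and the sorting nexin SNX1 fell (-0.14, adjusted p = 0.0163). Without line 1 in heavy medium 2 rose and 1 fell, without line 3 in light medium 5 rose, and on counts summed per line 0 were called (4 at an unadjusted p under 0.05). With both libraries of line 1 left out 2 rose and 1 fell, with line 2 left out 1 and 0, and with line 3 left out 5 and 2.

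Receptors of the classes that GPRASP proteins are known to bind moved in both directions. Of 26 opioid, dopamine, adrenergic, muscarinic and cannabinoid receptor genes and SMO, 15 were tested, 6 rose and 2 fell, with a median log2 fold change of 0.59, beside 15% and 9.78% of all genes and a median of 0.0029. The muscarinic receptor CHRM1 went from 7.97 ± 0.818 to 18.2 ± 5.36 CPM (log2 fold change 1.19, edgeR adjusted p = 0.00191), while CHRM2 went from 36.9 ± 2.73 to 15.3 ± 6.76 CPM (-1.28, adjusted p = 0.00811). The nociceptin receptor OPRL1 (0.59, adjusted p = 0.00537) and the dopamine receptor DRD2 (0.64, adjusted p = 0.00748) rose. DRD5, 1 of the 6, was at 0 in all wild-type libraries and in line 3, and at a mean of 0.244 CPM in knockout. Against a floor of 3 counts per library that was at least 2.65-fold higher. With DRD5 at that bound the median stayed at 0.59. DRD5 passed the filter on low counts through knockout libraries alone, so its place among the 6 is no support for a rise. With a filter of at least 1 CPM, 4 rose and 2 fell. SMO did not pass (71.6 ± 3.33 CPM in wild type, 44.8 ± 19.8 CPM in knockout). The counts became 4 and 1 without line 1 in heavy medium, 8 and 5 without line 3 in light medium, and 7 and 4 with DESeq2. The count that fell was 4 without line 3 in heavy medium and 1 without line 1 in light medium or any wild-type light replicate. With both libraries of line 1 left out 4 rose and 1 fell, with line 2 left out 3 and 2, and with line 3 left out 8 and 5. The counts were 0 and 0 on counts summed per line (10 at an unadjusted p under 0.05).

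Genes of mitochondrial transport and dynamics, the setting in which ARMCX proteins are known, were all tested. Of the 25, 4 rose and 2 fell, with a median log2 fold change of 0.05, beside 15% and 9.78% of all genes and a median of 0.0029. SNPH, the mitochondrial anchor syntaphilin, went from 2.73 ± 0.314 to 5.81 ± 1.84 CPM (log2 fold change 1.09, edgeR adjusted p = 0.00213). The kinesin heavy chains KIF5A (0.60, adjusted p = 0.00408) and KIF5C (0.49, adjusted p = 0.0119) rose, and the adaptor TRAK2 fell (-0.23, adjusted p = 0.0123). The Miro genes RHOT1 (0.12, adjusted p = 0.0970) and RHOT2 (-0.01, adjusted p = 0.916) did not pass. The counts became 4 and 1 without line 1 in heavy medium. The count that fell was 4 without line 3 in light medium, and 1 without line 1 in light medium, line 2 in either medium, wild-type heavy replicate 2 or 3, or wild-type light replicate 1 or 2. With both libraries of line 1 left out 3 rose and 1 fell, with line 2 left out 3 and 0, and with line 3 left out 8 and 5. The counts were 0 and 0 on counts summed per line (6 at an unadjusted p under 0.05).

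Likeness of pattern was measured as the root mean square difference of log2 CPM over the 12 libraries, each gene centred on its own wild-type mean. Before the logarithm 0.1 CPM was added. GPRASP1 and GPRASP2 differed by 0.238, ARMCX1 and ARMCX2 by 0.129, and GPRASP2 and its read-through by 0.549. Genes outside the family were sought for GPRASP1 and GPRASP2 only, among tested genes with a mean log2 CPM of at least 0. The nearest to GPRASP1 were PNPLA4 (0.561), RSPO4 (0.607) and CHST8 (0.615). For GPRASP2 they were GALNT6 (0.687), RSPO4 (0.694) and PNPLA4 (0.696). PNPLA4, a lipase gene on chromosome X, was at 0.594 ± 0.0834 CPM in wild type and at 9.37, 16.0 and 2.88 CPM in lines 1, 2 and 3. RSPO4, a Wnt-pathway ligand gene on chromosome 20, was at 1.04 ± 0.254 CPM in wild type and at 18, 15.2 and 5.03 CPM in lines 1, 2 and 3. In both genes line 3 was the lowest knockout line, as it was for GPRASP1 and not for GPRASP2. These distances are descriptions over libraries that share the same 2 groups. Those of GPRASP1 and GPRASP2 use the rise for which the pair was picked, so their closeness is no separate result.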

How the data were processed

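The authors deposited raw read counts per gene, whole numbers, for 12 poly(A) RNA libraries, made with a stranded mRNA kit per the labels' protocols. Per the submitters' processing notes, the tools were bcl2fastq 2.19.0, STAR 2.7.0f, featureCounts of Subread 1.6.4 and DESeq2 1.22.1 in R 3.5.1, with build GRCh38.p13. For the counting, the annotation release and the strand setting were not given in the sources used here. Features were matched by symbol to GENCODE 29 for positions and exon lengths.

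The counts were fitted with edgeR 4.0.16 in R 4.3.3 over all genes: TMM factors, filterByExpr over the 4 groups (minimum count 10), robust quasi-likelihood F tests and Benjamini-Hochberg adjustment over 16704 genes at 0.05. Medium was a covariate in comparisons of genotype or line, and genotype in the comparison of media. The fits of knockout against wild type, of media and of the interaction had no term for the line. The 2 libraries of a line entered them as separate samples. Standard errors come from the F statistic. The fit of knockout against wild type was tried on simulated counts of independent libraries, without likeness within a line. The other fits were not simulated.

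The family and the gene lists were chosen with earlier results of these data known. From each list up to 4 genes with the smallest p were named, all neighbours within 1 Mb that passed, and the 3 genes most like GPRASP1 and GPRASP2; DRD5, SMO, TCEAL2, RHOT1, RHOT2 and ARRB2 were named after their values were seen. Libraries of 1 knockout number come from 1 line per the labels. Their deviations correlated at 0.76 in lines 2 and 3 but at 0.11 in line 1. Wild-type numbers did not pair (0.15, 0.05 and -0.13), nor did wild-type and knockout numbers within a medium (-0.22 to -0.026). By these values the libraries of line 1 pair no better than those of wild type. Alternatives were DESeq2 1.42.0, RLE factors, other filters, each library or line left out, a replicate block and counts summed per line. Pairs of promoter windows were aligned with Biopython 1.88.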

Additional observations from a re-analysis of the deposited data

How the results depend on the processing

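In knockout against wild type, 2 ARMCX genes were called as reported, beside 24.8% of all genes. With each library left out 2 to 3 were called, beside 15.6% to 35.4%. With the replicate number as a block 3 were called, beside 26.8%. ARMCX5 was added there (edgeR adjusted p = 0.0469), though the numbers do not pair wild type with knockout. On counts summed per line 0 were called, beside 1.58%. That setting holds fewer samples. The main fit takes the 2 libraries of a line as separate samples and does not allow for their likeness. In the fits of single lines ARMCX calls were lost with some libraries left out, as given above. With 1 wild-type library left out these fits called 23.6% to 29.7% of all genes in line 1. The shares were 41.6% to 47.3% in line 2 and 5.32% to 9.33% in line 3. The count of the 9 genes that differed among the lines was 0 as reported, beside 12.4% of all genes. It was 1 with DESeq2, beside 11%, and 2 with no filter on low counts, and the cause was not tested. Those calls were of GPRASP1 and GPRASP2, on whose values the family was picked. With a library left out a line has 1 library, so those counts are not given. For heavy against light medium and for the interaction the count of the 9 genes called was 0 with each library left out and 0 with the replicate block. Over all genes, knockout against wild type gave 4135 calls as reported, 264 on counts summed per line, 2285, 1727 and 7371 without line 1, 2 or 3, and 2602 to 5909 with 1 library left out. ARMCX1 and ARMCX2 were higher under every alternative run (log2 fold change 0.34 to 0.47 and 0.24 to 0.36), and summing per line was the alternative that ended their calls. The list and neighbour counts under alternatives were added after the data had been seen. Wild-type counts of 18 to 47 for GPRASP1 and the read-through gene limit the precision of their folds.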
